A study of Mus musculus with 12 samples.

Results

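Homeostatic microglia genes are genes that resident microglia of the undisturbed brain transcribe strongly. The 10 examined here were Cx3cr1, P2ry12, P2ry13, Gpr34, Csf1r, Trem2, C1qa, C1qb, C1qc and Tmem119, and they were followed in medial prefrontal cortex (PFC) of control and Fyn-null mice after an acute ethanol or saline injection. They are 10 of the 18193 genes with a probe set of their own in the array's annotation, and all probe sets given one of their symbols were taken. This gave 16 of the 45037 probe sets that are not array controls, and 14 of the 16, at least 1 for each gene, lay above a filter on dim signals and were among the 24770 tested. The 2 that did not pass were the second probe sets of Cx3cr1 (1450019_at, 4.04 to 4.56 in the 12 arrays) and of Trem2 (1421226_at, 4.02 to 4.33). Values are log2 hybridization signals from the RMA procedure, so a difference of 1 is a doubling.

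The study asked which transcripts depend on the Src-family tyrosine kinase Fyn, at rest and after ethanol, and compared 4 groups of 3 arrays each. Control mice were B6129SF2/J, and mice without Fyn carried the tm1Sor allele (B6;129S7-Fyn-tm1Sor/J). These are separate stocks, so genotype and stock cannot be told apart. All were adult males, 12 weeks old by the labels, an age that the methods give for their arrival from the supplier, before a period in the animal facility. They received saline for 3 days to become used to injection, then saline or ethanol at 3 g/kg into the peritoneum, and PFC was taken 4 hours later. Every array held RNA pooled from 3 mice of one group, so the spread given below is between pools and not between animals.

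Microglia are the macrophages of the brain parenchyma. They scan the tissue with moving processes, take up dying cells and excess synapses, and depend on signals from neurons and other glia to keep their resting state. The genes of that state include receptors for nucleotides and lipids, for a chemokine and for growth factors, and the chains of the complement starter C1q. Several of them are known to lose transcription when microglia become reactive.

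The targeted gene parted the groups unevenly. The brighter Fyn probe set lay at 9.33 to 9.70 in control ethanol pools and at 8.75 to 9.01 in Fyn-null ethanol pools. Under saline the pool labelled control saline replicate 2 (8.74) read like a Fyn-null pool. Conversely, Fyn-null saline replicate 4, as labelled, read like a control pool (9.45). All directions drawn from saline pools carry that doubt, and for each comparison that rests on these 2 pools the members' counts are also given without them. The difference between 3' and 5' probe sets for Gapdh is a sign of RNA integrity and labelling. It was 0.106 to 0.529 in the 6 saline pools and -0.05 to 0.105 in the 6 ethanol pools, so it moved with treatment. That for Actb was 0.977 to 1.45 in saline and 0.707 to 1.15 in ethanol pools, which ranged lower but overlapped. Markers of cortical neurons such as Slc17a7 and Tbr1 passed the filter, as did Spi1, Aif1 and Csf1r of the myeloid lineage, and so did 4 of 7 genes of striatum and choroid plexus (Drd1, Ppp1r1b, Rgs9 and Ttr), whereas Drd2, Folr1 and Kl did not.

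The clearest changes were in 2 receptors of the P2Y-like family of G protein-coupled receptors, Gpr34 and P2ry13. Both were lower after ethanol, and in both all 6 ethanol pools lay below all 6 saline pools. Over both genotypes, 2 of the 14 member probe sets (14.3%) were called at an adjusted p under 0.05, both lower, beside 6.81% of all probe sets called and 4.22% called lower. The 2 were also the members whose 6 ethanol and 6 saline pools did not overlap, which held for 3.90% of all probe sets. An unadjusted p from limma under 0.05 was reached by the same 2 alone (14.3%, against 24.3% of all probe sets). Whole tissue was measured, so fewer microglia and less RNA per microglial cell cannot be told apart.

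Gpr34 encodes a receptor for lysophosphatidylserine that microglia carry in high amount. Its probe set (1422542_at) read 6.09, 6.09 and 5.90 in control saline replicates 1, 2 and 3. Control ethanol replicates 1, 2 and 4 read 5.07, 4.19 and 5.30. Among Fyn-null pools, saline replicates 2, 3 and 4 read 5.91, 5.76 and 5.78 and ethanol replicates 1, 2 and 3 read 5.43, 4.75 and 5.31. The saline pools of both genotypes were tightly grouped, whereas the ethanol pools were spread widely, with replicate 2 the lowest in each genotype. Over both genotypes the ethanol difference was -0.91 (standard error 0.18, limma adjusted p = 0.0113). The order of group means was control saline (6.03), Fyn-null saline (5.82), Fyn-null ethanol (5.17) and control ethanol (4.86). The neighbours that share a treatment overlapped and no difference between them was called, though the saline groups overlapped only at 5.90 and 5.91. The neighbours of unlike treatment in that order, both Fyn-null, did not overlap. The mean signal of Gpr34 stood at the 50.4th percentile of all probe sets, close to the filter, and in 2 control ethanol pools and 1 Fyn-null ethanol pool its value was under 5.15, the mean below which probe sets were left out. The mean of the control ethanol group (4.86) was under that level too, so no fold is given for this gene.

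P2ry13 encodes a receptor for ADP that couples to inhibitory G proteins and sits close to P2ry12 in sequence and genome. Its probe set (1428700_at) read 6.44, 6.80 and 6.44 in control saline replicates 1, 2 and 3 and 5.70, 6.14 and 6.22 in control ethanol replicates 1, 2 and 4. Among Fyn-null pools, saline replicates 2, 3 and 4 read 6.83, 6.51 and 6.55, against 6.11, 6.27 and 6.10 for ethanol replicates 1, 2 and 3. Each ethanol pool was thus below each saline pool in both genotypes. The difference over both genotypes was -0.51 (standard error 0.0993, limma adjusted p = 0.0113), which is 1.42-fold lower.

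Both calls were lost when the Gapdh 3' to 5' difference entered the fit as a covariate, although neither difference became smaller. That covariate did not overlap between treatments (saline pools from 0.106, ethanol pools up to 0.105). Covariate and ethanol were therefore largely, though not wholly, confounded in that fit, for every probe set. At least 110 of all probe sets were called over both genotypes in each setting run, whereas these 2 members were not called with the covariate. The part of the covariate in that loss was not tested. Gpr34 then stood at -1.0 (limma adjusted p = 0.168) and P2ry13 at -0.66 (limma adjusted p = 0.0811). Without the 2 saline pools in doubt, Gpr34 was at -0.90 (limma adjusted p = 0.0316) and P2ry13 at -0.47 (limma adjusted p = 0.0294). Both calls held, beside 5.28% of all probe sets called.

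**Figure D1:**
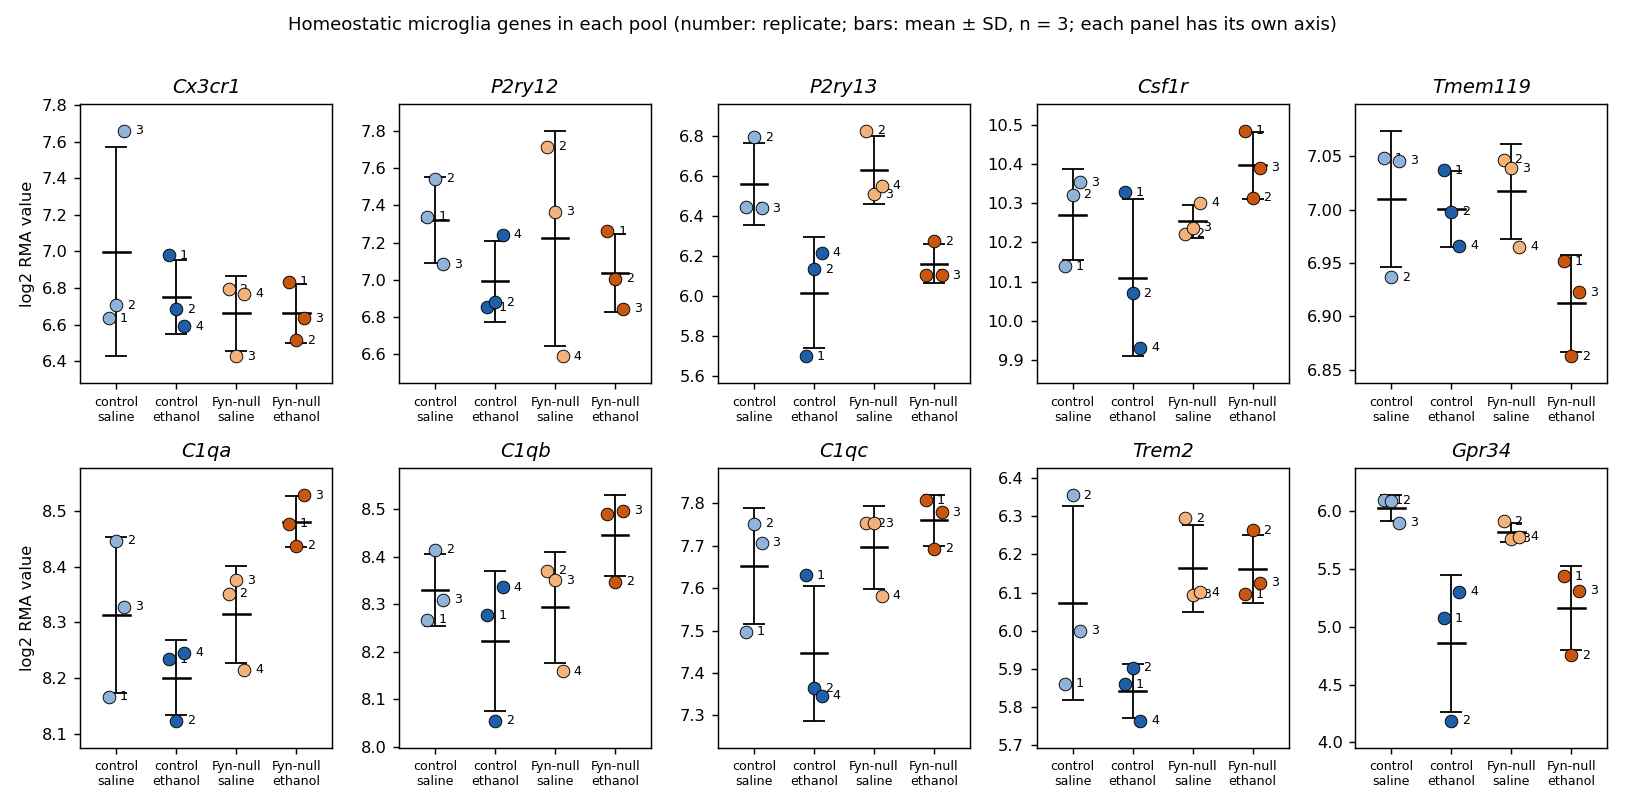
Log2 RMA value (vertical axis, a separate scale for each gene) of the 10 homeostatic microglia genes in every pool, by group, with 1 probe set per gene, the one with the highest mean. Points are pools numbered by replicate, and bars are the mean ± SD of 3 pools. Gpr34 and P2ry13 are lower in all ethanol pools than in all saline pools, and C1qa, C1qb, C1qc and Trem2 are higher in the Fyn-null ethanol pools than in the control ethanol pools.

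Taken genotype by genotype, fewer calls were made. In control mice 1 of 14 member probe sets (7.14%) was called, Gpr34, and it was lower, beside 1.43% of all probe sets called and 0.925% called lower. Gpr34 was at -1.17 in control mice (standard error 0.24, limma adjusted p = 0.0374), and P2ry13 was at -0.54 (limma adjusted p = 0.0838). These 2 were the members with an unadjusted p from limma under 0.05 (14.3%, against 18.9% of all probe sets). Ethanol and saline pools of control mice did not overlap for 3 of the 14 (21.4%, against 23.0% of all probe sets), namely Gpr34, P2ry13 and the Csf1r probe set 1419873_s_at. The call for Gpr34 in control mice depended on single pools. Its limma adjusted p was 0.0772 without control ethanol replicate 1, 0.0665 without control ethanol replicate 2, 0.0798 without control saline replicate 1, 0.0924 without the pool labelled control saline replicate 2 and 0.095 without control saline replicate 3. It was 0.0624 without Fyn-null ethanol replicate 3 and 0.0536 without Fyn-null saline replicate 2, pools that add only to the shared estimate of spread. The difference itself lay between -1.40 and -0.84 when any single pool was left out, the smallest without control ethanol replicate 2. Without both pools in doubt 0 of 14 were called in control mice, beside 0.602% of all probe sets, and all 14 were again below 0.

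In Fyn-null mice no member probe set was called by limma (0 of 14), beside 0.400% of all probe sets called and 0.145% called lower. At an unadjusted p under 0.05 there were 2, against 11.7% of all probe sets. These were P2ry13 at -0.47 (limma adjusted p = 0.231) and Gpr34 at -0.65 (limma adjusted p = 0.315). Pools did not overlap for 5 of the 14 (35.7%, against 18.1% of all). Gpr34, P2ry13 and Tmem119 lay below after ethanol, and C1qa and the Csf1r probe set 1419872_at lay above. Other Csf1r probe sets overlapped and had lower means after ethanol, 8.77 against 8.82 (1419873_s_at) and 8.30 against 8.39 (1423593_a_at). Leaving out both pools in doubt again gave 0 of 14 calls in Fyn-null mice, beside 0.226% of all probe sets. P2ry12 was then at -0.50 (limma adjusted p = 0.29), beside P2ry13 at -0.51 (limma adjusted p = 0.248).

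The other receptors of this set gave no call. P2ry12, the ADP receptor that guides microglial processes to sites of injury, was 6.59 to 7.72 in saline pools and 6.84 to 7.26 in ethanol pools (1431724_a_at). Its difference over both genotypes was -0.26 (standard error 0.16, limma adjusted p = 0.355). The lowest of the 6 saline values was that of the pool labelled Fyn-null saline replicate 4, and without both pools in doubt the difference was -0.36 (limma adjusted p = 0.0964). Cx3cr1, the receptor for the neuronal chemokine fractalkine, was at -0.12 (standard error 0.16, limma adjusted p = 0.671). One pool set most of its spread, since control saline replicate 3 read 7.66 (1450020_at) and the other 11 pools 6.43 to 6.98.

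P2ry13 and P2ry12 are neighbours on chromosome 3 with 0 protein-coding genes between them in the RefSeq order, and C1qb, C1qc and C1qa follow each other on chromosome 4 in the same way. Promoter windows of 300 bases (250 before and 50 after the annotated start, RefSeq, GRCm38.p6) were found for 6 of the 10 members. C1qa, Csf1r, Gpr34 and Tmem119 had no entry. Windows of P2ry13, P2ry12 and C1qc, all genes of these clusters, are printed 5' to 3'. That of C1qb, also in a cluster, is not printed. Capitals mark AGGAAG or its reverse complement CTTCCT, a stretch of the longer motif of PU.1, an ETS family factor that specifies myeloid cells. The windows lie on the minus strand at chr3:59210833-59211132 (P2ry13), chr3:59262936-59263235 (P2ry12) and chr4:136892865-136893164 (C1qc).
P2ry13: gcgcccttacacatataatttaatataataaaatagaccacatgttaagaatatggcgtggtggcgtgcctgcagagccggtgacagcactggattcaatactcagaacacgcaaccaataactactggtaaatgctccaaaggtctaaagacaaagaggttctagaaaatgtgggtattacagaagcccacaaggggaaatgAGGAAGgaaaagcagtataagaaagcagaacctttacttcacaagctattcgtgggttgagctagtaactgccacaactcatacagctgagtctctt
P2ry12: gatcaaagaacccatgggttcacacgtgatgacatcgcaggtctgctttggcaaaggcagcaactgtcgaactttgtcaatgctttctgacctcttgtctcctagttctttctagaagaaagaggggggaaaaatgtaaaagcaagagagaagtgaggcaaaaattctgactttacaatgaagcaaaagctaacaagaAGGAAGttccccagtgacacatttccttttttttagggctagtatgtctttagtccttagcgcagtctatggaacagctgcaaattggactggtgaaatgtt
C1qc: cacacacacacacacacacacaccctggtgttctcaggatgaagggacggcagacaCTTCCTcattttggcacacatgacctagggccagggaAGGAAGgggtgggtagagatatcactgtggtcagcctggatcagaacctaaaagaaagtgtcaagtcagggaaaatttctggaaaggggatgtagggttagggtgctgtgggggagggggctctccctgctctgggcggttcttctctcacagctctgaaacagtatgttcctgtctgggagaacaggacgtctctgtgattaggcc

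Searched on both strands, AGGAAG was present in 5 of the 6 member windows, all but that of Cx3cr1, and in 35.4% of the 32851 promoter windows of the table. The longer PU.1 motif GAGGAAGT, which contains that stretch, was in the C1qc window alone among the 6 and in 3.2% of all. The AP-1 motif TGANTCA was in 1 (Trem2, against 7.81% of all), and the glucocorticoid half-site AGAACA in 3 (P2ry13, C1qb and C1qc, against 19% of all). These are matches of letters in one window and do not show binding.

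C1q, the molecule that starts the classical complement pathway and tags synapses for removal, is built from the products of C1qa, C1qb and C1qc. None of the 3 genes was called between ethanol and saline over both genotypes. The differences were 0.03 for C1qa (95% interval -0.12 to 0.18), 0.02 for C1qb (-0.14 to 0.18, 1417063_at) and -0.07 for C1qc (-0.24 to 0.10). Csf1r, the receptor for CSF1 and IL-34 on which microglia depend for survival, was at -0.01 (-0.19 to 0.17, 1419872_at). Its other probe sets had lower means after ethanol, 8.74 against 8.84 after saline (1419873_s_at) and 8.32 against 8.41 (1423593_a_at), without a call. Trem2, a lipid-sensing receptor that signals through Tyrobp, was at -0.12 (-0.30 to 0.07). Tmem119, a membrane protein used as a marker of microglia, was at -0.06 (-0.16 to 0.05).

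The responses of the genotypes were also set against each other, and no difference between them was called. In control mice all 14 member probe sets were lower after ethanol, with a median of -0.22 beside -0.04 over all probe sets tested. In Fyn-null mice 6 were higher and 8 lower, with a median near 0 (-0.0019 beside -0.0073 over all). The difference between the responses, Fyn-null minus control, was above 0 for 12 of the 14, with a median of 0.25 beside 0.03 over all. limma called 0 of the 14 and 0% of all probe sets for this difference. At an unadjusted p under 0.05 there were 2 of 14 (14.3%, against 4.13% of all), C1qa and the C1qb probe set 1437726_x_at. Without the 2 saline pools in doubt the median was 0.16 beside 0.04 with 10 of 14 above 0, again with 0 calls, and only the C1qb probe set kept an unadjusted p under 0.05. C1qa went from 0.28 to 0.16 (unadjusted p from limma 0.22), P2ry12 to -0.28 and P2ry13 to -0.08. The 3 Csf1r probe sets disagreed here, at 0.30, 0.12 and -0.01, as did the size of the difference among the 3 C1qb probe sets (0.26, 0.58 and 0.40). The suffixes _s_at and _x_at on some of these mark probes that can match more than one transcript.

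**Figure D2:**
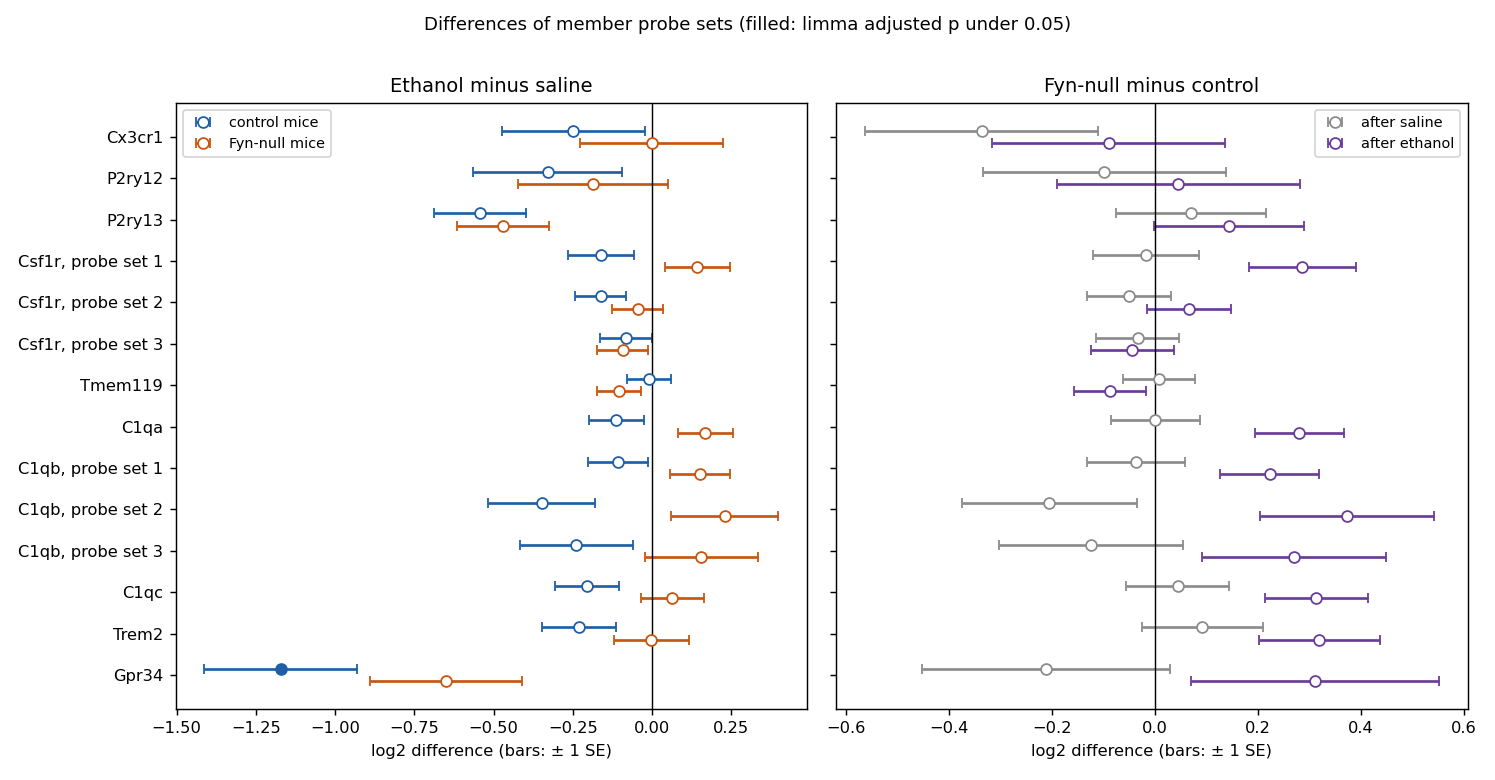
Log2 differences of the 14 member probe sets tested, with bars of 1 standard error from limma. Left, ethanol minus saline in control mice and in Fyn-null mice; right, Fyn-null minus control after saline and after ethanol. Only Gpr34 in control mice is filled (adjusted p under 0.05), and after ethanol 11 of 14 probe sets lie above 0 in the right panel. Where a gene has several, they are numbered by falling mean signal.

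After ethanol the genotypes did not overlap in C1qa, C1qc, Trem2, Tmem119 and the brightest C1qb probe set, though no difference was called. C1qa (1417381_at) read 8.23, 8.12 and 8.25 in control ethanol replicates 1, 2 and 4, against 8.48, 8.44 and 8.53 for ethanol replicates 1, 2 and 3 of Fyn-null mice. C1qc (1449401_at) read 7.63, 7.36 and 7.35 in the same control pools and 7.81, 7.69 and 7.78 in the Fyn-null pools. Trem2 (1421792_s_at) read 5.86, 5.90 and 5.76 against 6.10, 6.26 and 6.13. C1qb (1417063_at) read 8.28, 8.05 and 8.34 against 8.49, 8.35 and 8.50. In these 4 probe sets every Fyn-null ethanol pool was above every control ethanol pool, though the nearest values of C1qb, 8.34 and 8.35, were close. The other C1qb probe sets overlapped between the genotypes. In the same pools 1437726_x_at read 7.78, 7.18 and 7.41 against 7.86, 7.58 and 8.04. For 1434366_x_at the values were 7.28, 6.53 and 6.83 against 7.37, 6.95 and 7.14.

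The Fyn-null minus control differences after ethanol were 0.28 for C1qa (standard error 0.0868, limma adjusted p = 0.20), 0.31 for C1qc (0.10, limma adjusted p = 0.21) and 0.32 for Trem2 (0.12, limma adjusted p = 0.262). For C1qb (1417063_at) it was 0.22 (limma adjusted p = 0.329). The 3 Csf1r probe sets disagreed, at 0.29 (1419872_at, limma adjusted p = 0.254), 0.07 (1419873_s_at) and -0.04 (1423593_a_at). No member was called and neither was any other probe set (0 of 14, beside 0% of all). At an unadjusted p under 0.05 there were 6 of 14 (42.9%, against 13.7% of all probe sets). The genotypes did not overlap after ethanol for 5 of 14 (35.7%, against 20.3% of all). The fifth was Tmem119, lower in Fyn-null pools by 0.09 (-0.09, limma adjusted p = 0.619). The median over the 14 was 0.25 beside 0.03 over all probe sets. The 2 pools in doubt are saline pools and take no part in these means, but they add to the shared estimate of spread. Without them 0 of 14 members were called beside 1.05% of all probe sets, with C1qa and Trem2 each at a limma adjusted p of 0.138.

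After saline the genotypes overlapped in every member as labelled. limma called 0 of 14, beside 0% of all probe sets, and 0 of the 14 reached an unadjusted p under 0.05 (1.89% of all did). Pools did not overlap for 0 of 14, against 5.16% of all. The median difference was -0.04, and the saline values of C1qa, 8.17 to 8.45 in the control and 8.22 to 8.38 in the Fyn-null pools, overlapped. Without the 2 pools in doubt, which leaves 2 against 2 pools, limma again called 0 of 14, beside 0.178% of all probe sets, but several differences moved. Trem2 went from 0.09 to 0.26 (unadjusted p from limma 0.0364), Cx3cr1 from -0.34 to -0.54, and P2ry12 turned from -0.10 to 0.33. Over both treatments no member was called either (0 of 14, beside 0% of all), and 2 had an unadjusted p under 0.05, against 11.1% of all. These were Trem2, 0.21 higher in Fyn-null pools (standard error 0.0856, limma adjusted p = 0.412), and C1qc, 0.18 higher (limma adjusted p = 0.43). Without the 2 saline pools in doubt, Trem2 stood at 0.30 and was called (limma adjusted p = 0.041), beside 2.7% of all probe sets called.

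Over the 12 pools the members did not vary as one. Pearson's r was 0.89 between C1qa and C1qb, 0.84 between C1qa and C1qc and 0.72 between C1qb and C1qc, the 3 chains of one molecule. Csf1r and C1qc had r = 0.86. When each value was set against its group mean these were 0.82, 0.74, 0.59 and 0.77, so the chains also varied together within groups. Csf1r was less like C1qa (r = 0.67, and 0.28 with group means removed) and C1qb (0.51, and 0.10). Gpr34 and P2ry13 had r = 0.66 over the 12 pools but -0.14 after their group means were removed. Among 12322 genes, Gpr34 ranked 705th in likeness to P2ry13, and P2ry13 ranked 1254th in likeness to Gpr34. C1qb ranked 15th and C1qc 82nd in likeness to C1qa, and C1qc ranked 368th in likeness to C1qb. P2ry12 and P2ry13 had r = 0.59 over the 12 pools and 0.81 over the 10 without those in doubt. Tmem119 ran against C1qa over the 12 pools (r = -0.54), but much less so after group means were removed (-0.14). The pools share groups and RNA quality, so these coefficients describe the 12 arrays.

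**Figure D3:**
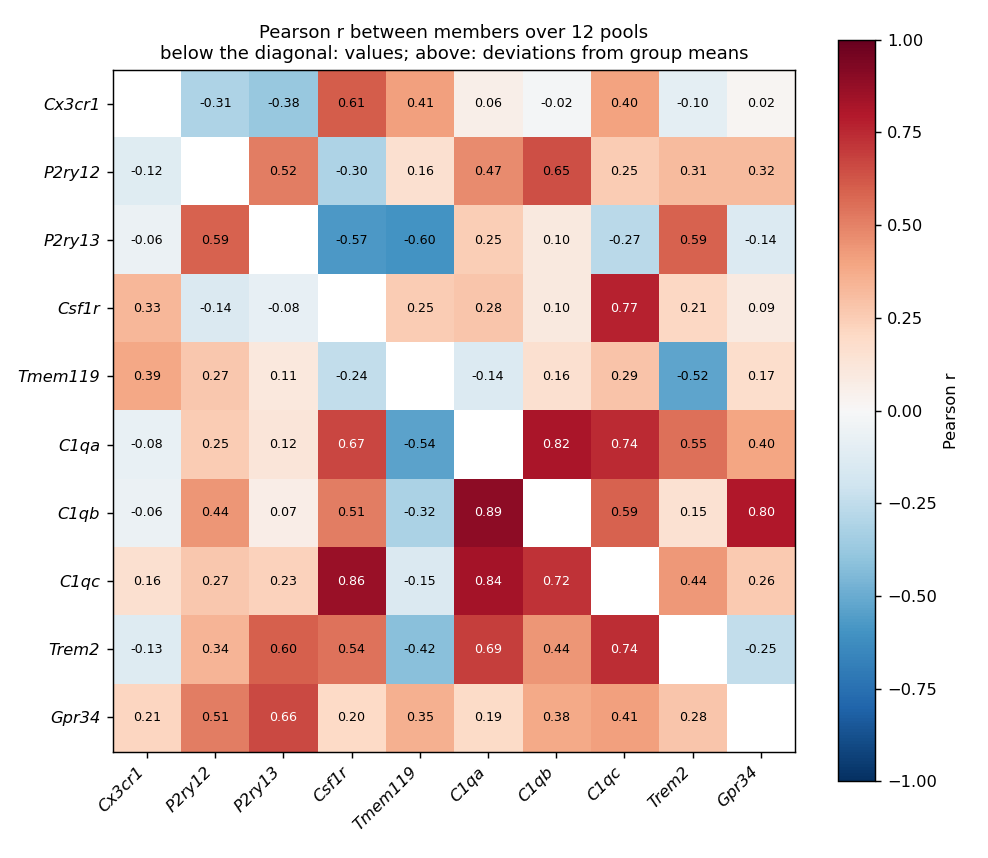
Pearson r between the 10 homeostatic microglia genes over 12 pools, with values below the diagonal and deviations from the group means above it. The C1q chains have high r with each other (0.84 between C1qa and C1qc). Below the diagonal, Csf1r has 0.86 with C1qc but 0.67 with C1qa and 0.51 with C1qb. Gpr34 and P2ry13 go from 0.66 below the diagonal to -0.14 above it.

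The mean of the 10 genes, each standardized over the 12 pools, was lowest in control ethanol replicates 1, 2 and 4 (-0.38, -1.12 and -0.73). Control saline replicates 1, 2 and 3 stood at -0.18, 0.71 and 0.53. Fyn-null pools stood at 0.74, 0.29 and -0.28 (saline replicates 2, 3 and 4) and at 0.45, -0.19 and 0.16 (ethanol replicates 1, 2 and 3). The control groups thus did not overlap and the Fyn-null groups did. Of 12313 other genes, those most like this mean were Prmt3 (r = 0.96), Slitrk2 (0.96), Mto1 (0.94), Rcc2 (0.94) and Exoc2 (0.93), beside a median r of 0.23 over all. Over the 10 pools without those in doubt, Prmt3 and Slitrk2 ranked 2 and 3 and the others 18, 20 and 33. The best placed myeloid gene, Ly86, ranked 71 (r = 0.86).

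Genes that work with the members were compared in the same fit, 1 probe set per gene. Among ligands and signalling partners, 1 of 7 was called over both genotypes. This was Cx3cl1, fractalkine itself, at -0.22 (limma adjusted p = 0.0289). Tyrobp, the adaptor of Trem2, was called in control mice at -0.39 (limma adjusted p = 0.0473) and was at -0.21 over both genotypes (limma adjusted p = 0.111). The growth factors Csf1 and Il34 were at 0.03 and -0.04. None of 5 other complement genes tested and none of 4 other purinergic genes was called over both genotypes. The smallest p-values were those of Itgb2 (-0.17, limma adjusted p = 0.242) and of P2rx7, an ATP-gated channel (-0.23, limma adjusted p = 0.164).

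Other genes of microglial identity were mixed. Of 14 tested, over both genotypes Sall1, the transcription factor that keeps microglia in their resting state, was lower (-0.55, limma adjusted p = 0.0103). Golm1, a Golgi membrane protein gene also transcribed outside microglia, was higher (0.60, limma adjusted p = 0.000101). The median was 0.01. In control mice alone Olfml3, a secreted protein gene typical of microglia, was also called (-0.59, limma adjusted p = 0.0207). In Fyn-null mice Golm1 was the only one called (0.68, limma adjusted p = 0.00178). Siglech and Fcrls, both microglial, were at -0.11 and -0.14 over both genotypes and not called.

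Of 12 genes of the myeloid lineage in general all were below 0 over both genotypes, with a median of -0.16, and 2 were called. These were Lcp1, an actin-bundling protein of leukocytes (-0.48, limma adjusted p = 0.00246), and Aif1, which encodes the microglial marker Iba1 (-0.44, limma adjusted p = 0.00435). Spi1, the gene of PU.1, was at -0.05 (limma adjusted p = 0.726). Of 22 genes of microglial activation with a probe set, 15 were under the filter, among them Tnf, Il1b, Il6 and Ccl2. None of the other 7 was called, with Cd68, a lysosomal protein of phagocytes, at the smallest p (-0.23, limma adjusted p = 0.059).

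Markers of other cells moved with treatment beside Gpr34 and P2ry13. Of 6 endothelial markers 5 were lower after ethanol over both genotypes. These were Tek (-0.92), Cldn5 (-0.64), Slco1a4 (-0.57), Flt1 (-0.41) and Cdh5 (-0.33), with limma adjusted p-values from 0.000259 to 0.0471. Their summary over the 6 genes, a mean log2 level, was 6.97 to 7.14 in control saline and 6.37 to 6.65 in control ethanol pools. It was 7.01 to 7.24 in Fyn-null saline and 6.64 to 6.80 in Fyn-null ethanol pools. Of 3 border macrophage markers above the filter Pf4 was lower (-0.30, limma adjusted p = 0.0217), and Cd163, Lyve1, Ms4a7 and Cbr2 were under it. Alas2 of red blood cells was lower (-0.37, limma adjusted p = 0.0285), and Hba-a1 was under the filter. The part of these shifts, and of the Gapdh 3' to 5' difference, in the values of Gpr34 and P2ry13 was not tested.

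No marker of neurons (0 of 7), astrocytes (0 of 7), oligodendrocytes (0 of 6) or blood leukocytes (0 of 2, with 6 more under the filter) was called over both genotypes. The smallest p in each belonged to Rbfox3 (0.23, limma adjusted p = 0.216), Aqp4 (-0.11, limma adjusted p = 0.577), Cldn11 (0.22, limma adjusted p = 0.137) and Cd3e (0.07, limma adjusted p = 0.561). Of 4 striatal and choroid plexus markers Ppp1r1b was higher (0.21, limma adjusted p = 0.0316). Of the 15 genes called over both genotypes in all lists, the members included, 14 were also called without the 2 pools in doubt, and Ppp1r1b was not (limma adjusted p = 0.0781).

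**Figure D4:**
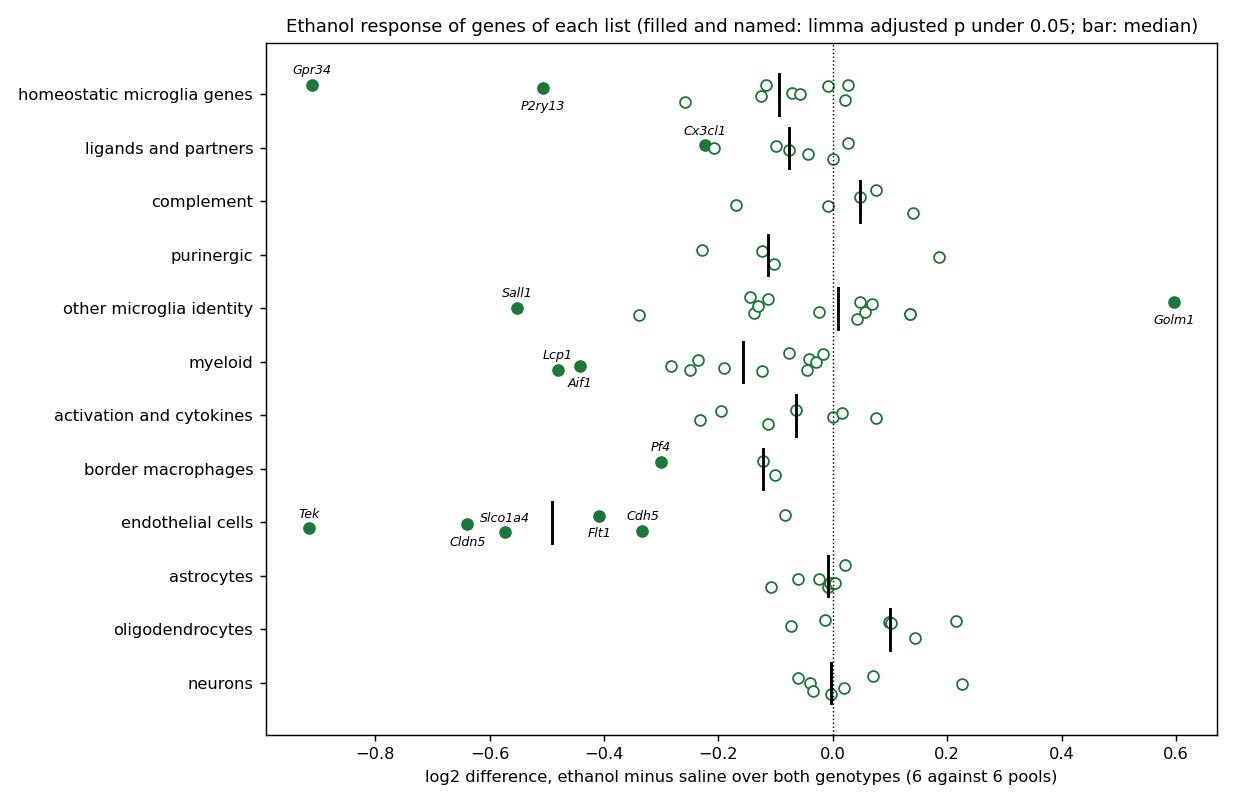
Log2 difference, ethanol minus saline over both genotypes (6 against 6 pools), of the genes of each list, with 1 probe set per gene. Filled, named points have a limma adjusted p under 0.05 and the black bar is the median of the list. Gpr34 and P2ry13 are filled and the other 8 homeostatic genes are not, and 5 of 6 endothelial markers are filled and lower.

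For genotype over both treatments no gene of these lists was called. Beside Trem2, its adaptor Tyrobp was 0.29 higher in Fyn-null pools (standard error 0.0753, limma adjusted p = 0.316), and after ethanol every Fyn-null pool was above every control pool (0.46, limma adjusted p = 0.104). The genes with the smallest p in 5 further microglial and myeloid lists, 1 per list, were Ltc4s (0.29, limma adjusted p = 0.316), Ly86 (0.41, limma adjusted p = 0.381), P2rx7 (0.25, limma adjusted p = 0.382), Cd59a (0.28, limma adjusted p = 0.481) and Apoe (0.10, limma adjusted p = 0.558). These 5 were all higher, but the lists were mixed. Below 0 were 4 of 14 genes of other microglial identity, 4 of 12 myeloid genes and 3 of 7 activation genes. So were 1 of 4 other purinergic and 1 of 5 other complement genes. Of the endothelial markers Cldn5 was 0.23 higher in Fyn-null pools (limma adjusted p = 0.336) and 0.37 higher after ethanol (limma adjusted p = 0.132). The genotypes did not overlap after ethanol for 20.3% of all probe sets. Every Fyn-null pool was above for 4 of 12 myeloid genes, 3 of 14 of other microglial identity and 3 of 4 other purinergic genes. The same held for 1 of 5 other complement and 1 of 7 activation genes. Markers of other cells also parted the genotypes after ethanol without a call. In that comparison 2 of 6 endothelial markers did not overlap and were above in Fyn-null pools, as were 3 of 7 astrocyte markers, with Slc1a2 below (-0.27). Of 7 neuronal markers Slc17a7 (-0.48, limma adjusted p = 0.174) and Gad1 (-0.25) were below and Syt1 above (0.14). Mbp (-0.34) and Cldn11 (-0.08) of 6 oligodendrocyte markers and Drd1 (-0.29) and Ppp1r1b (-0.16) of 4 striatal and choroid plexus markers were below. The part of these shifts in the values of the C1q chains and Trem2 was not tested.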

How the data were processed

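PFC was profiled in 4 groups of 3 arrays, 1 array per pool of 3 mice, as the labels assign them. The paper and the labels give unlike numbers of mice per group. The authors deposited log2 values per probe set, made with affy and RMA per the submitters' processing notes. A step for hybridization batches stands in the methods, but whether it altered the deposited values is not stated there, nor are the versions of these tools. S-scores, which take probe-level data, were not computed.

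Array medians were 5.40 to 5.48. Array controls (64) were removed, as was the dimmest 45% of the remaining probe sets by mean signal, and the 24770 left were fitted on all 12 arrays (R 4.3.3, limma 3.58.1, lmFit and eBayes). A fit of 4 group means gave ethanol responses by genotype, the interaction and both genotype differences, and an additive fit gave the terms over both genotypes and treatments. P-values were Benjamini-Hochberg adjusted over all probe sets in each of the 7 comparisons. The scripts were tested on simulated data. The number of pools limits the precision, and the median standard error of the members was 0.108 (3 against 3 pools) or 0.0764 (6 against 6).

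A gene was represented by its brightest probe set. Members and gene lists were chosen with earlier results of these data known. Named are all members, every list gene called, otherwise the smallest p of a list in the additive fit, and the 5 genes most like the members' mean. Other genes named were chosen after their values were seen. Alternatives were other filters, further quantile normalization, median centring, a replicate block, trend and robust, array weights, leaving out each pool or both pools in doubt, averaged probe sets per gene, and only the 2 groups compared. The Gapdh covariate was added after the data were seen. Some genes are not reported here.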

Additional observations from a re-analysis of the deposited data

How the results depend on the processing

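Over both genotypes Gpr34 (-0.73 to -1.0) and P2ry13 (-0.43 to -0.55) were called with any 1 pool left out. The 2 member calls became 1 with a 60% filter, which leaves out Gpr34, and 0 with the Gapdh 3' to 5' covariate. That covariate was added after seeing the data and did not overlap between saline and ethanol pools. In control mice the 1 call (Gpr34) became 0 with a 60% filter (Gpr34 left out), without both pools in doubt, with the covariate and in a fit of only those 2 groups, and 2 when the probe sets of each gene were averaged, where P2ry13 was called as well. It ranged from 0 to 1 when 1 pool was left out. Replicate numbers did not pair the samples, since residuals of same-numbered arrays correlated over 0.1 in 3 of 13 pairs (-0.43 to 0.32) and 2 of 12 arrays were closest to their own number. With a replicate block the calls were 0 in control mice (Gpr34 -1.26, limma adjusted p = 0.0825) and still 2 over both genotypes, and all probe sets called in control mice went from 355 to 36. Array weights gave 1 call in Fyn-null mice (P2ry13) and 6 for genotype after ethanol (C1qa, 2 probe sets of C1qb, C1qc, Csf1r and Gpr34, the last at 0.61). That fit called 3975 of all probe sets, against 0 without weights, and gave 1 pool, Fyn-null ethanol replicate 3, a weight of 10.3 while the other 11 had 0.454 to 1.45, and the estimation of the weights stopped short of convergence. For genotype over both treatments, leaving out both pools in doubt gave 1 call (Trem2) in place of 0. The interaction and the genotype difference after saline had 0 member calls in all settings run. Over all probe sets the calls across settings ranged from 18 to 506 in control mice (355 in the fit reported), from 26 to 2781 in Fyn-null mice (99), from 110 to 2098 over both genotypes (1686), from 0 to 44 for genotype after saline (0), from 0 to 3975 after ethanol (0) and from 0 to 668 over both treatments (0). Of the differences of single member probe sets over all settings, 2092 stayed on their side of the threshold or moved by less than 1 standard error, 56 moved by more, 13 lost a call, 9 gained one and 0 called values changed sign. With 3 pools per group, a missed call does not show that the groups were alike.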
